A study of Mus musculus with 20 samples.

Results

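The genes described here are 41 genes of protein folding and secretion in the endoplasmic reticulum (ER), out of 43422 genes measured in the abdominal aortas of 20 mice. The list holds chaperones, disulfide isomerases, stress sensors and their transcription factors, ER-associated degradation factors, subunits of the translocon and signal peptidase, ER to Golgi transport factors and prolyl isomerases. It was drawn up with earlier results of these data known, because the interaction of genotype and treatment was strong for Pdia5 and Pdia6. For these 2 genes every contrast that feeds that interaction is therefore given as a value without a test, and counts of called genes are over the other 39. All 41 were measured in every mouse, and all 41 passed the filter on low values in each comparison.

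Plod1-/- mice lack lysyl hydroxylase 1 (LH1), the ER enzyme that hydroxylates lysines of procollagen, in every cell of the body. The 4 groups held 5 mice each: wild-type (WT) mice and Plod1-/- mice on the C57BL/6 background (C57Bl/6NCrl in the study's methods), each given saline or Ang II for 14 days from an osmotic pump under the skin, and labelled as 6 months old, whereas the study's methods give a younger age. The dose of Ang II was 1000 ng per kg of body weight each minute. Ang II (angiotensin II) is a pressor hormone whose infusion is used to induce dissecting aneurysms of the abdominal aorta. Expression was given as FPKM, the fragments mapped to a gene scaled by the length of its exons and by the size of the library, and each value below is the FPKM of 1 mouse unless a mean ± SD is named.

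Proteins that leave the cell enter the ER through the Sec61 translocon, lose their signal peptide, and are folded by the Hsp70 chaperone BiP (encoded by Hspa5), by lectin chaperones and by disulfide and prolyl isomerases before COPII vesicles carry them to the Golgi. When unfolded proteins accumulate, the sensors IRE1 (Ern1), ATF6 and PERK set off the unfolded protein response: IRE1 splices Xbp1 mRNA, ATF6 is cut in the Golgi, PERK phosphorylates eIF2 alpha, and the resulting transcription factors induce chaperone and degradation genes. Fibroblasts and smooth muscle cells of the vessel wall secrete collagen and elastin and carry much of this machinery, and procollagen needs the prolyl 4-hydroxylase subunit P4hb, the isomerases Ppib, Fkbp10 and Fkbp14 and the transcription factor Creb3l1.

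The promoters were searched for known sites of the unfolded protein response. The list holds chaperone and degradation genes, which this response induces. High shares of these sites are therefore a description of such a list and not a separate finding. RefSeq promoters (assembly GRCm38.p6, 250 bases before to 50 bases after a transcript start) were at hand for 31 of the 41 members, and each was searched on both strands. The ER stress element ERSE (CCAAT, then 9 bases of any kind, then CCACG), the classic site of ATF6 with the factor NF-Y, was present in 7 of the 31 (22.6%), namely Hspa5, Hsp90b1, Dnajc3, Calr, Canx, Pdia6 and Creld2, against 37 of 27025 genes with such a promoter (0.137%). ERSE-II (ATTGG, then 1 base of any kind, then CCACG) was present in 2 members, Dnajb11 and Herpud1 (6.45%, against 0.0444% of genes), and the core of the unfolded protein response element (UPRE, TGACGTGG) in 4, Txndc5, Txndc11, Sec24d and Kdelr3 (12.9%, against 0.714%). CCACG alone, which is part of each of these 3 motifs, was present in 25 members (80.6%, against 35.5%). The C/EBP-ATF element TGATGNAAT, read by ATF4 and its partners, was present in 0 of the 31 and in 1.08% of genes. These matches are descriptions of the letters in this window, not of binding.

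The promoters of 7 members that the results turn on are shown, as the 250 bases before the start, 5′ to 3′ on the gene's strand. Capitals mark ERSE in Hspa5 (chr2:34771840-34772089, plus strand), Hsp90b1 (chr10:86705445-86705694, minus strand), Pdia6 (chr12:17266339-17266588, plus strand) and Creld2 (chr15:88819396-88819645, plus strand), and the UPRE core in Kdelr3 (chr15:79516158-79516407, plus strand). In Sdf2l1 (chr16:17132384-17132633, minus strand) and Pdia5 (chr16:35490874-35491123, minus strand), which hold none of the 4 longer motifs, capitals mark CCACG or its reverse complement.
Hspa5: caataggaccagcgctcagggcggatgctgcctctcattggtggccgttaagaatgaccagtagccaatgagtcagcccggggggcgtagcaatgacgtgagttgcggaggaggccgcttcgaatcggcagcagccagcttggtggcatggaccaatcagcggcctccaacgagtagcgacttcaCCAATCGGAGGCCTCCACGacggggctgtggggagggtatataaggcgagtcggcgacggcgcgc
Hsp90b1: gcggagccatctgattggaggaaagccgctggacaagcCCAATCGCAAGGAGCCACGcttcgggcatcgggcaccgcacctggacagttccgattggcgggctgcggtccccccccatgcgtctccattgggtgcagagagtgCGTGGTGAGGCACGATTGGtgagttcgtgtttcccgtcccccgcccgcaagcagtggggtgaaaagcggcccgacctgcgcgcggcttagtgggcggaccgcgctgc
Pdia6: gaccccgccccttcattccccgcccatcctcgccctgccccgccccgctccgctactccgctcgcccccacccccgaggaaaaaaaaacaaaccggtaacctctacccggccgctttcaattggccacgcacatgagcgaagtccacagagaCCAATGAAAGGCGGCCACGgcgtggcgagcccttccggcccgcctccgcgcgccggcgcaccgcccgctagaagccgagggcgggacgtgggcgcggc
Creld2: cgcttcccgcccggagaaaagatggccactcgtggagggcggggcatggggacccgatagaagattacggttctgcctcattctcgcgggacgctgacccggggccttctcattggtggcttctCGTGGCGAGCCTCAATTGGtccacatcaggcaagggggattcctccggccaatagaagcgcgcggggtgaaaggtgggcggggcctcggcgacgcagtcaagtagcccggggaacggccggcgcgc
Kdelr3: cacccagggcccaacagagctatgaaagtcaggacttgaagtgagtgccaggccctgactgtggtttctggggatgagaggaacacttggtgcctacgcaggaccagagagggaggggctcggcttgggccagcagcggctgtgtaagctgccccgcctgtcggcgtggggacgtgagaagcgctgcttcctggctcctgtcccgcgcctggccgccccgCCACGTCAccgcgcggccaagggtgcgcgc
Sdf2l1: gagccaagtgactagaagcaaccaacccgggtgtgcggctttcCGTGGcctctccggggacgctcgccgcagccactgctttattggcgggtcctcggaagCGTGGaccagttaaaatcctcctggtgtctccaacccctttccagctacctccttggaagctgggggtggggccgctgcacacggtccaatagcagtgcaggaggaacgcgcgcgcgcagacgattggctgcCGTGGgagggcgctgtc
Pdia5: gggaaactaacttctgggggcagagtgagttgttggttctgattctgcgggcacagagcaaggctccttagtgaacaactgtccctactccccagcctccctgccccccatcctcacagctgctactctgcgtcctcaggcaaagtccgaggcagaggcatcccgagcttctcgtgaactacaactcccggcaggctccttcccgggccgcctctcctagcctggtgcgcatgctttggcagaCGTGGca

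The other matches are short enough to compare letter by letter. The ERSE of Dnajc3 and that of Canx lie in the gene's direction, that of Calr lies reversed, and the ERSE-II of Dnajb11 lies 7 to 17 bases after the start.
Dnajc3: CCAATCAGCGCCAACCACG
Canx: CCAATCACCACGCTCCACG
Calr: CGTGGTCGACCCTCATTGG
Herpud1: ATTGGGCCACG
Dnajb11: ATTGGCCCACG

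**Figure D1:**
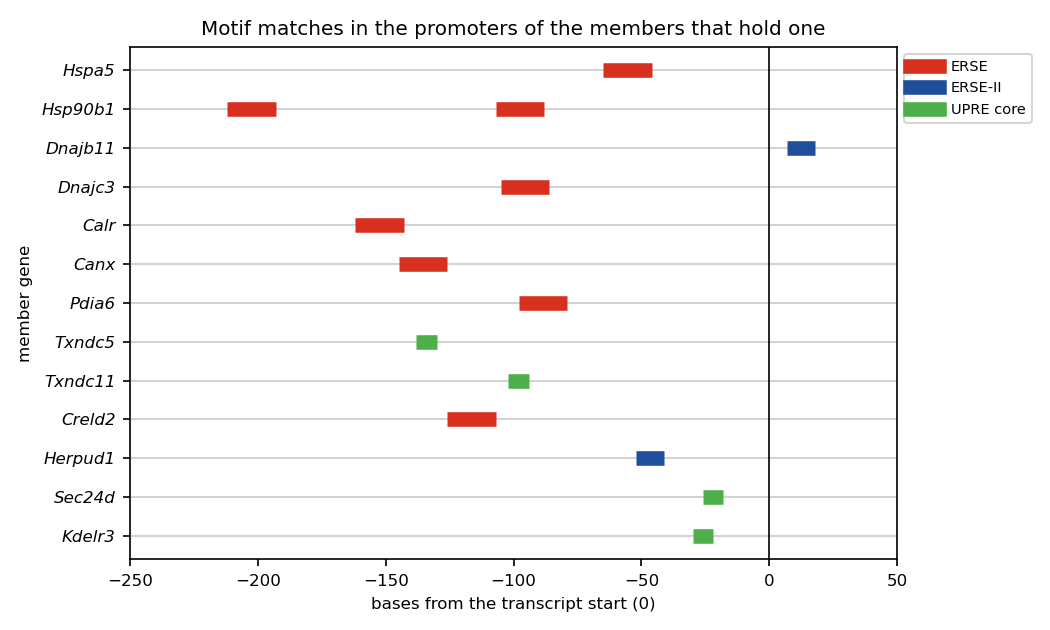
Position of motif matches in the promoters of the 13 members that hold ERSE, ERSE-II or the UPRE core, in bases from the transcript start (x axis, 0 at the start), on either strand. Hsp90b1 holds 2 ERSE matches, and the match of Dnajb11 is the only one drawn here that lies after the start.

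The libraries held 24711700 to 29795000 reads (to the nearest 100), as worked out from the steps between low values, and the members took between 174 reads (Sdf2l1) and 48843 reads (Hspa5) in a mouse. Plod1 itself ranged from 22.8 to 29.7 FPKM in WT mice and reached at most 0.0415 in Plod1-/- mice, as labelled. Smooth muscle markers were the most abundant of the cell type lists in each group by median, with a summed FPKM of 5509 or more in all but 3 mice, each of them Plod1-/- with Ang II (2297, 3754 and 4200). Although the study describes male mice, Xist RNA stood at 15.1 FPKM in Plod1-/- saline mouse 5 and at 7.93 in Plod1-/- Ang II mouse 1, and at most at 0.0328 elsewhere. Each result was also computed without these 2 mice. These are bulk tissues, in which fewer cells of a type and less RNA per cell cannot be told apart, and the labels say only that samples are separate, so p-values measure the spread between these samples.

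Most members were high in saline-infused WT mice and in Ang II-infused Plod1-/- mice and low in the other 2 groups. In 33 of 41 members, the 2 lowest group means were those of WT mice with Ang II and Plod1-/- mice with saline. The highest mean belonged to Plod1-/- mice with Ang II in 28 members and to saline-infused WT mice in 12, and to WT mice with Ang II in 0. The 8 that departed from the common order were Creb3l2, Ddit3, Ern1, Fkbp14, Herpud1, Sdf2l1, Sec24d and Sil1. This order is the contrast that led to the choice of the list, so nothing is read from these counts. The share of all genes with it was not counted.

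The median over the 41 members of the difference from the mean of saline-infused WT mice, in log2(FPKM + 1), summarizes each mouse. It was -0.003, 0.15, -0.09, 0.14 and -0.21 in WT mice with saline and -0.37, -0.86, -0.68, -0.21 and -0.70 in WT mice with Ang II. It was -0.38, -0.44, -0.36, -0.35 and -0.49 in Plod1-/- mice with saline and 0.19, 0.15, 0.47, 0.12 and 0.11 in Plod1-/- mice with Ang II. The Plod1-/- groups did not overlap, and all 5 Plod1-/- mice with saline lay below all 5 WT mice with saline. WT Ang II mice 1 and 4 lay nearest to the saline-infused WT mice. This median includes Pdia5 and Pdia6, and the gaps between groups feed the contrast that led to the choice of the list. They are a description, and nothing further is read from them.

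**Figure D2:**
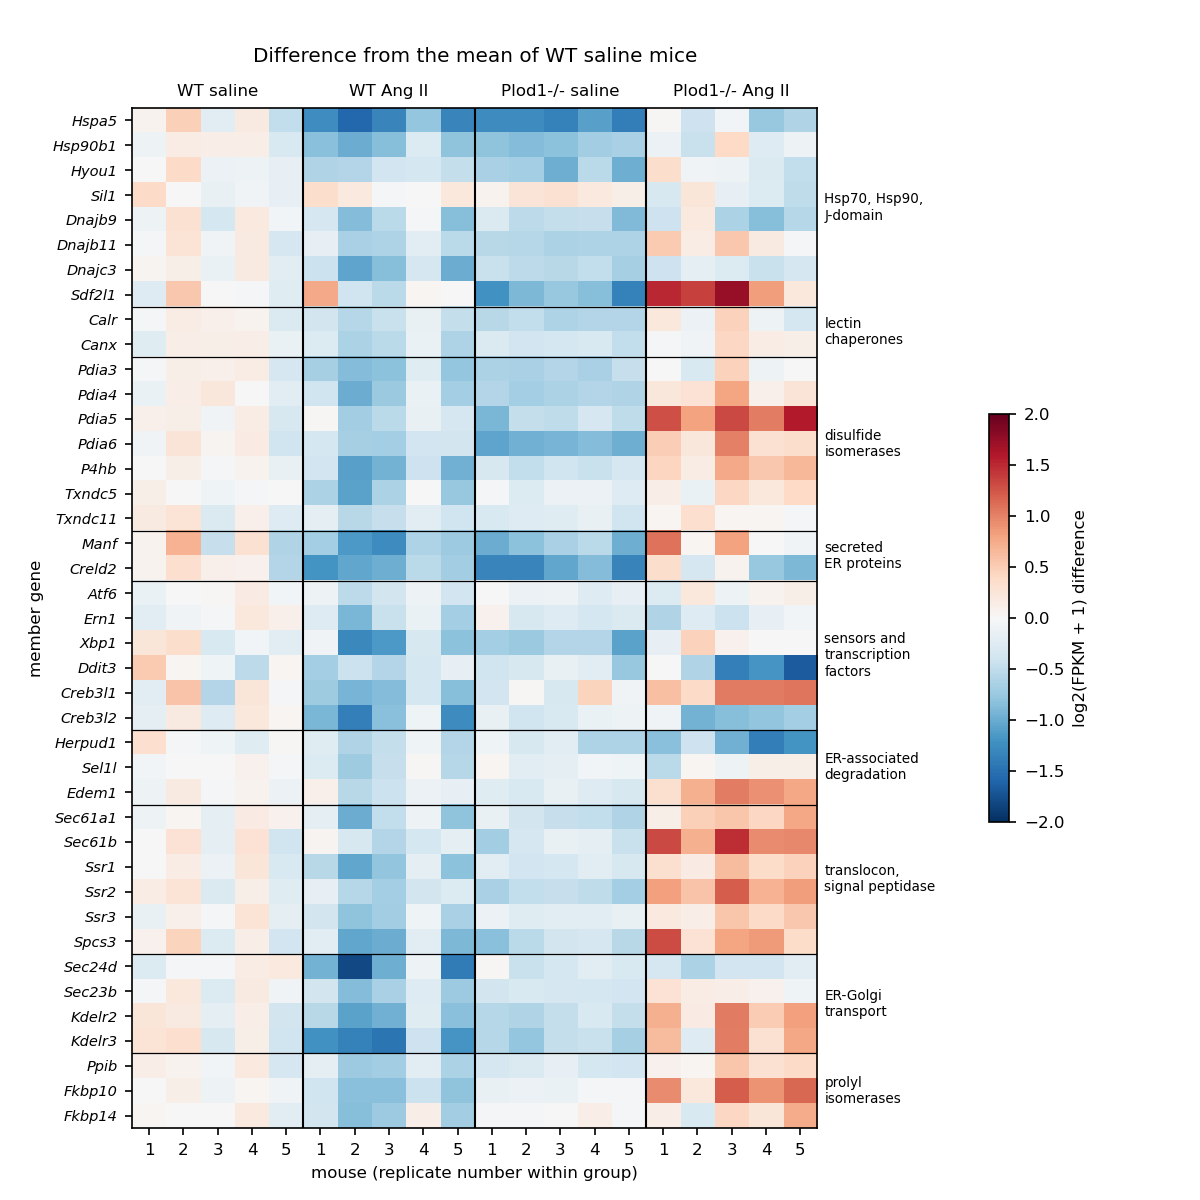
Heat map of the 41 members (rows, grouped by role) in the 20 mice (columns, 5 per group), as the difference of log2(FPKM + 1) from the mean of WT mice with saline. Red is higher and blue lower. WT Ang II and Plod1-/- saline columns are mostly blue, Plod1-/- Ang II columns are mostly red, and Ddit3, Herpud1, Creb3l2 and Sil1 stand out against that.

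Ang II against saline in Plod1-/- mice asks how the infusion acted on the aorta without LH1. At an adjusted p below 0.05 (limma, Benjamini-Hochberg over 12333 genes), 28 of 39 members rose and 3 fell, against 23.8% and 20.1% of all genes tested, so 43.8% of genes were called in either direction. Differentially expressed genes (DEGs) had to pass a log2 fold change above 1 in size as well. Of the members 8 were DEGs, all higher, while 8.38% of all genes were DEGs that rose and 5.51% DEGs that fell (13.9% in all). In 26 members each Ang II mouse lay above each saline mouse, against 14.2% of genes, with 15.0% below and so 29.2% without overlap in either direction. The median log2 fold change was 0.66 over the 41 members and 0.05 over all genes. Of the 31 calls, 26 held in all of 20 alternatives, and those of Sil1, Herpud1, Creb3l2, Txndc5 and Txndc11 did not.

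Ang II against saline in WT mice gave the opposite direction. Of 39 members, 32 fell and 0 rose, against 21.5% and 16.5% of 11994 genes (38.0% in all), and 3 were DEGs, all lower (2.28% of genes were lower and 6.38% higher DEGs, 8.66% in all). The median log2 fold change was -0.52 over the 41 members and -0.14 over all genes, and 7 members did not overlap between the groups (6.88% of genes lay lower and 10.4% higher without overlap, 17.3% in all). The count rests on single mice: it was 18 without WT saline mouse 2 or WT Ang II mouse 2, 3 or 5, 20 without WT saline mouse 4 and 21 without WT saline mouse 1, while 15 of the 32 calls held in all of 19 alternatives. The 17 others, each lost in 1 to 11 alternatives, were those of Dnajb9, Dnajb11, Calr, Canx, Pdia4, Manf, Ern1, Xbp1, Creb3l1, Herpud1, Sel1l, Sec61a1, Ssr2, Ssr3, Spcs3, Ppib and Fkbp14.

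The 2 responses share no mice, and 24 of the 39 members rose in Plod1-/- mice and fell in WT mice, against 3.58% of the 11744 genes tested in both. This contrast is what led to the choice of the list, so nothing is read from the count. A further 5 were called in Plod1-/- mice and not in WT mice (Edem1, Sdf2l1, Sec61b, Sil1 and Txndc11), 6 in WT mice and not in Plod1-/- mice (Dnajb9, Dnajc3, Ern1, Fkbp14, Sec24d and Sel1l), 2 fell in both (Creb3l2 and Herpud1) and 2 were called in neither (Atf6 and Ddit3).

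**Figure D3:**
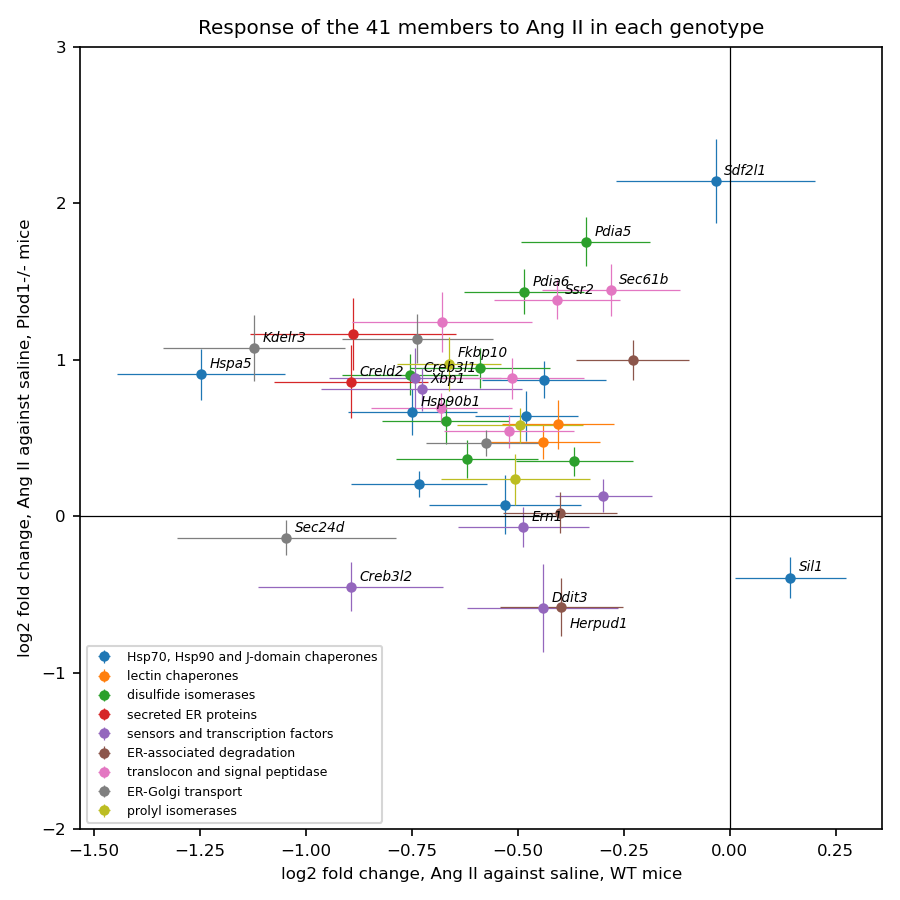
Log2 fold change with Ang II against saline in WT mice (x axis) and in Plod1-/- mice (y axis) for the 41 members, coloured by role, with standard errors as bars. Most points lie left of 0 and above 0, Sdf2l1 is highest at 2.14 in Plod1-/- mice, and Sil1 alone lies to the right of 0.

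Plod1-/- against WT mice, both with Ang II, compares the genotypes under the same infusion and shares its mice with the comparisons above. Here 26 of 39 members were higher and 1 lower, against 20.8% and 10.4% of 12356 genes (31.2% in all), and 11 were DEGs, all higher (7.45% of genes were higher and 3.67% lower DEGs, 11.1% in all). In 20 members the groups did not overlap, all higher (10.4% of genes lay higher and 4.62% lower, 15.1% in all). The median log2 fold change was 0.77 over the 41 members and 0.12 over all genes, and 19 of the 27 calls held in all of 19 different alternatives. The 8 others, each lost in 2 to 10 of them, were those of Hsp90b1, Sdf2l1, Canx, Pdia3, Txndc11, Xbp1, Herpud1 and Fkbp14.

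Plod1-/- against WT mice, both with saline for 14 days, shows the members in mice that were given no Ang II. In this quiet comparison, in which 6.55% of 11999 genes were called, 19 of 39 members were lower and 0 higher (3.23% of all genes were lower and 3.33% higher). The 3 DEGs among members, Hspa5, Creld2 and Sdf2l1, were lower (0.408% of genes were lower and 0.358% higher DEGs, 0.767% in all), and in 17 members each Plod1-/- mouse lay below each WT mouse (5.30% of genes lay lower and 4.22% higher, 9.52% in all). The median log2 fold change was -0.40 over the 41 members and -0.01 over all genes. The count was 10 without WT saline mouse 2, Plod1-/- saline mouse 2 or Plod1-/- saline mouse 4, and 12 without WT saline mouse 4 or Plod1-/- saline mouse 5, the only mouse with Xist RNA in this comparison. It was 10 with no filter on low values, 9 with the replicate number as a block and 8 with all 4 groups in 1 fit. The 7 calls that held in all of 19 different alternatives were Hspa5, Hsp90b1, Hyou1, Dnajb11, Dnajc3, Pdia4 and Creld2.

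Other gene lists also differed between the groups, only in part in the order of the members. The summed FPKM of 6 immediate early genes (Fos, Fosb, Egr1, Jun, Junb and Nr4a1), which respond within minutes to handling of tissue, ran from 363 to 1928 in WT mice with saline, 76.1 to 122 in WT mice with Ang II, 124 to 995 in Plod1-/- mice with saline and 357 to 1194 in Plod1-/- mice with Ang II. Fos alone ran from 87.5 to 358 in WT mice with saline, 2.41 to 8.94 in WT mice with Ang II, 6.40 to 226 in Plod1-/- mice with saline and 99.5 to 401 in Plod1-/- mice with Ang II. The sum thus had the order of the members, low in WT mice with Ang II and in most Plod1-/- mice with saline. Single genes followed it in part. With Ang II 6 of 6 fell in WT mice, while 2 rose and 0 fell in Plod1-/- mice. Under saline 1 was lower and 0 higher in Plod1-/- mice. The Nr4a1 median in Plod1-/- mice was 83.0 FPKM with saline and 63.0 with Ang II. The 6 cytosolic heat shock genes summed to 1869 to 3841 in WT mice with saline and to 982 to 1852 in Plod1-/- mice with saline, without overlap. In WT mice with Ang II they summed to 764 to 975. Hspb1 carried the sum, with medians of 2936 and 1222 FPKM in WT and Plod1-/- mice with saline. Of the single genes only Hsp90aa1 did not overlap between these 2 groups, and 2 of the 6 passed the test there. In Plod1-/- mice with Ang II the sum stood at 3011 in mouse 1. In the other 4 it stood at 432 to 885, below the range of Plod1-/- mice with saline, whereas the members rose. The part of these lists in the members' differences was not tested.

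Cell type lists moved as well. Fibroblast markers summed to 1083 to 6639 in Plod1-/- mice with Ang II and to 381 to 890 in the other 15 mice. The collagen genes Col1a1, Col1a2 and Col3a1 carried that sum, with a Col1a1 median of 790.1 FPKM in Plod1-/- mice with Ang II against 78.1 to 112 in the other groups. Dcn had its lowest median there, 113 against 143 to 272, and Lum and Pdgfra overlapped between the groups, and 3 of the 6 markers passed the test in Plod1-/- mice. Macrophage markers summed to 633 to 3682 in Plod1-/- mice with Ang II and to 56.9 to 1288 in the others. Smooth muscle markers ran from 14089 to 20407 in WT mice with saline and from 5509 to 17037 in WT mice with Ang II. The highest of the latter, 17037, was WT Ang II mouse 4. In Plod1-/- mice these markers ran from 15028 to 20704 with saline and from 2297 to 16760 with Ang II. Adipocyte markers ran from 723 to 4117 in WT mice with Ang II, against 79.6 to 441 in WT mice with saline, and the lowest of the former, 723, was WT Ang II mouse 4. Plasma cell markers summed to 12.04 to 26.2 in WT mice with saline, 51.9 to 663 in WT mice with Ang II, 31.5 to 218 in Plod1-/- mice with saline and 39.9 to 157 in Plod1-/- mice with Ang II, mostly Igkc and Ighm except in WT mice with saline. Sdc1 from the same list, with medians of 11.8, 9.91, 9.62 and 28.0 FPKM in that order, was highest in Plod1-/- mice with Ang II and, like the members, lowest in the 2 middle groups. Mitochondrial genes took 11.1% of the FPKM sum by mean in WT mice with saline, 23.3% in WT mice with Ang II and 13.4% in both Plod1-/- groups. With these genes left out and the sums made equal, 27 of 39 members fell in WT mice. The share of all genes that fell in that fit was not recorded, and the part of the mitochondrial genes in the members' fall was not tested. The part of the cell types in the results was not tested.

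**Figure D4:**
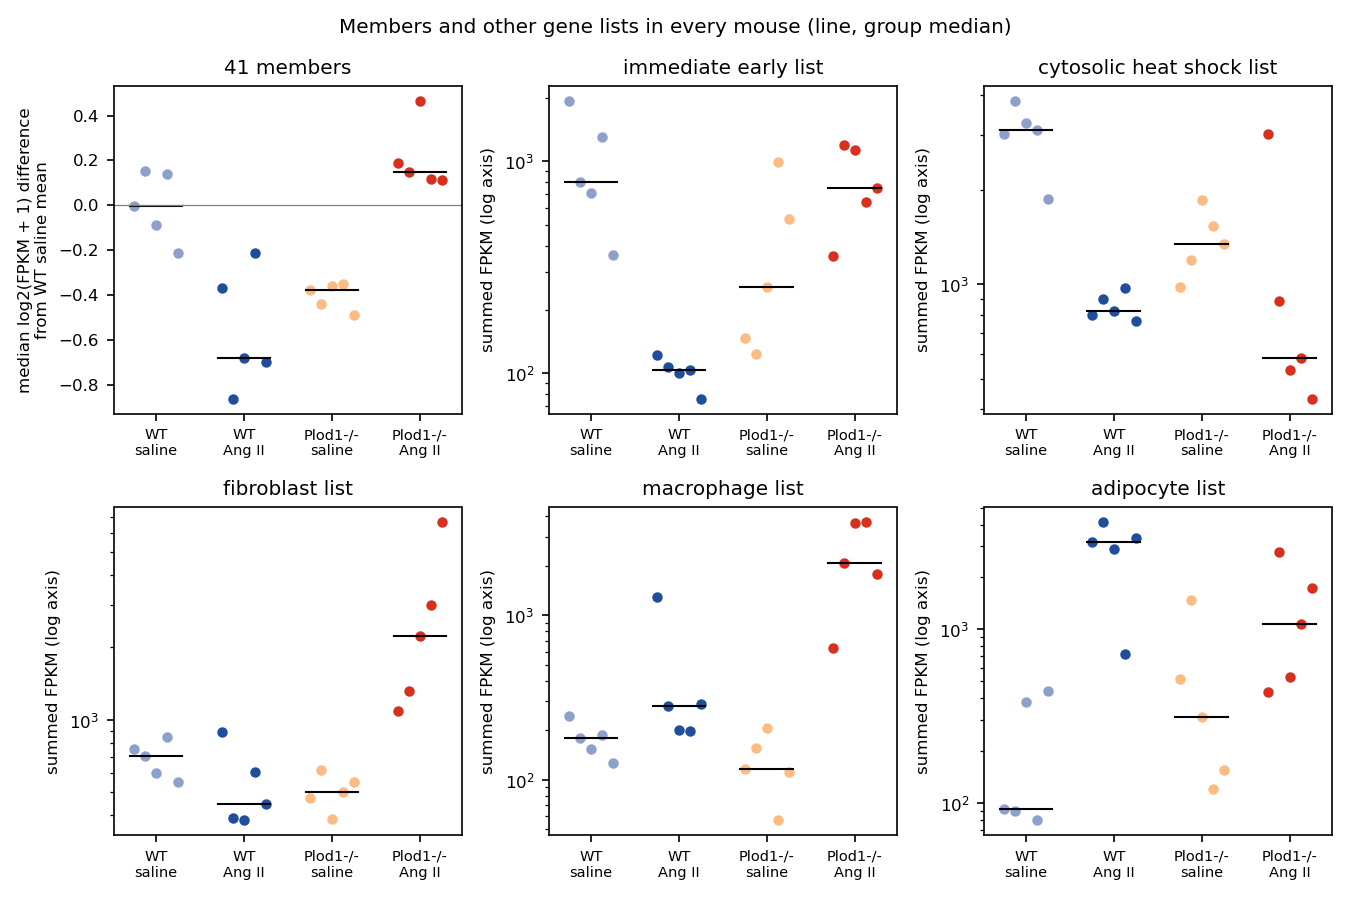
Each point is 1 mouse and the line is the group median. The first panel gives the median difference of the 41 members from WT mice with saline, in log2(FPKM + 1), and the other panels the summed FPKM of 5 other gene lists on a log axis. The immediate early list is lowest in WT mice with Ang II (76.1 to 122), and the fibroblast list does not overlap between Plod1-/- mice with Ang II and the other groups.

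Among the Hsp70, Hsp90 and J-domain chaperones, Hspa5 encodes BiP, the central chaperone and the gene most used as a gauge of ER stress. Its FPKM was 322, 427, 264, 347 and 218 in WT mice with saline and 129, 103, 122, 179.9 and 122 in WT mice with Ang II. It was 128, 127, 119, 144 and 117 in Plod1-/- mice with saline and 314, 230.4, 295, 182 and 202 in Plod1-/- mice with Ang II. Each of the 4 comparisons separated the groups without overlap, and the highest group was WT with saline, at 316 ± 80.1 (SD, n = 5).

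Hspa5 rose with Ang II in Plod1-/- mice by a log2 fold change of 0.91 ± 0.16 (SE, adjusted p = 0.00134). It fell in WT mice, with a log2 fold change of -1.25 ± 0.20 (adjusted p = 0.00206). Under saline it was lower in Plod1-/- than in WT mice, with a log2 fold change of -1.27 ± 0.16 (adjusted p = 0.00474), which placed it at rank 19 of 11999 genes by p, while under Ang II it was higher by 0.89 ± 0.20 (adjusted p = 0.01).

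Hsp90b1 encodes GRP94, the Hsp90 chaperone of the ER, and its promoter holds 2 of the ERSE matches printed above. It stood at 69.5, 82.3, 82.2, 81.7 and 59.96 in WT mice with saline and at 41.3, 36.9, 41, 61.8 and 42.3 in WT mice with Ang II. It stood at 42.1, 40.5, 41.9, 45.8 and 47.3 in Plod1-/- mice with saline and at 69, 54.6, 99.1, 62.1 and 69.4 in Plod1-/- mice with Ang II. Under saline, Plod1-/- mice lay below every WT mouse, with a log2 fold change of -0.77 ± 0.10 (adjusted p = 0.00559, rank 23 of 11999).

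With Ang II, Hsp90b1 rose by 0.66 on the log2 scale in Plod1-/- mice (adjusted p = 0.00425) and fell in WT mice, at -0.75 (adjusted p = 0.00522). Its difference between genotypes under Ang II was 0.65 ± 0.19 (limma, adjusted p = 0.0244). That call was lost without WT Ang II mouse 2, 3 or 5 or Plod1-/- Ang II mouse 3. It was also lost with no filter on low values and with the replicate block, at up to 0.0631.

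Sdf2l1, a cofactor of BiP that slows the aggregation of its clients, had the largest rise of the members with Ang II in Plod1-/- mice. Its FPKM was 6.24, 8.05, 8.9, 8.35 and 5.6 with saline and 46.8, 42.3, 55.2, 29 and 18.4 with Ang II, without overlap, a log2 fold change of 2.14 ± 0.27 (adjusted p = 0.000188). In WT mice it was 13.1, 23.3, 15.8, 15.5 and 13.2 with saline and 27.3, 11.7, 10.6, 16.2 and 15.7 with Ang II, and the log2 fold change of -0.03 ± 0.24 did not pass the test, with a 95% interval of -0.55 to 0.48.

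Under saline Sdf2l1 was lower in Plod1-/- mice by a log2 fold change of -1.01 ± 0.16 (adjusted p = 0.0116), without overlap. Under Ang II it was higher at 1.16 (limma, adjusted p = 0.0195), although the groups overlapped. That call was lost without WT Ang II mouse 2 or 3 or Plod1-/- Ang II mouse 3 and with no filter on low values, at up to 0.0564. Sdf2l1 was the only member that was a DEG in the average effect of Ang II.

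Of the 8 chaperones in this group, 5 rose and 1 fell with Ang II in Plod1-/- mice, 6 fell in WT mice, 4 were higher in Plod1-/- mice under Ang II and 7 were lower in Plod1-/- mice under saline. Among all genes, 23.8% rose and 20.1% fell in Plod1-/- mice, 21.5% fell in WT mice, 20.8% were higher under Ang II and 3.23% lower under saline, and these shares stand behind the counts of each role below. Hyou1, the Hsp110-type exchange factor of BiP, had means of 24.5, 17.2, 14 and 22.7 in WT saline, WT Ang II, Plod1-/- saline and Plod1-/- Ang II mice, in that order, and the J-domain protein Dnajb11 had means of 32.7, 23.9, 21 and 39.9. Dnajb9 (ERdj4) and Dnajc3 (p58IPK), J-domain proteins that feed back on IRE1 and PERK, fell in WT mice with Ang II (log2 fold changes of -0.53, lost in 10 of 19 alternatives, 7 of them single mice, and -0.73, lost in 0) but had values of 0.07 and 0.21 in Plod1-/- mice that did not pass the test. The other exchange factor of BiP, Sil1, went the other way: it was highest in Plod1-/- mice with saline at 40.9 ± 2.71 and lowest in Plod1-/- mice with Ang II at 31.3 ± 6.65, a log2 fold change of -0.39 ± 0.13 (adjusted p = 0.0346) that was lost in 10 of 20 alternatives, 8 of them single mice.

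The lectin chaperones calreticulin (Calr) and calnexin (Canx), which hold newly made glycoproteins, followed the common order. Calr was the most abundant member in FPKM, at 408 ± 46.8 and 308 ± 36 in WT mice and 274 ± 8.48 and 420.1 ± 96.4 in Plod1-/- mice, with saline and Ang II respectively. Both rose with Ang II in Plod1-/- mice (log2 fold changes of 0.59 and 0.47), both fell in WT mice (-0.40 and -0.44) and both were lower in Plod1-/- mice under saline (-0.57 and -0.36). The calls in WT mice were lost without WT saline mouse 2, 3 or 4 or WT Ang II mouse 2, 3 or 5 and with no filter on low values. That of Calr was also lost without WT saline mouse 1 and with the replicate block. The adjusted p (limma) reached 0.0863 for Calr and 0.0703 for Canx. Under saline the call of Canx was lost in 13 of 19 alternatives, among them without WT saline mouse 2, 3 or 4 and with each Plod1-/- mouse left out in turn, at up to 0.139. Under Ang II, Canx was higher in Plod1-/- mice, while Calr, at 0.43 ± 0.19 (adjusted p = 0.101), did not pass the test.

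Pdia5, a disulfide isomerase of the ER, was chosen for its interaction and is described without a test in the comparisons of 2 groups. Its FPKM was 13.9, 14, 12.2, 14.4 and 10.1 in WT mice with saline and 13.1, 7.53, 8.45, 11.4 and 9.96 in WT mice with Ang II. It was 6.31, 8.88, 8.72, 9.89 and 8.74 in Plod1-/- mice with saline and 32.6, 23.1, 33.5, 27.2 and 40.3 in Plod1-/- mice with Ang II, and the lowest of the latter lay above the highest of the other 15 mice. The log2 fold change with Ang II was 1.75 ± 0.16 in Plod1-/- mice and -0.34 ± 0.15 in WT mice.

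Pdia6 (P5), the isomerase that joins BiP on its clients and that attenuates IRE1 and PERK, was chosen in the same way. It stood at 86.2, 109, 93.6, 101 and 68.1 in WT mice with saline and at 70.9, 56.8, 56.2, 69.3 and 70.1 in WT mice with Ang II. It stood at 42.9, 45.8, 46.7, 49 and 45.5 in Plod1-/- mice with saline, within a narrow range, and at 127, 106, 183, 112 and 115 in Plod1-/- mice with Ang II. The log2 fold change with Ang II was 1.43 ± 0.14 in Plod1-/- mice and -0.49 ± 0.14 in WT mice, and that of Plod1-/- against WT mice was -0.96 ± 0.12 under saline and 0.96 ± 0.17 under Ang II.

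The other 5 disulfide isomerases and thioredoxin-domain proteins all rose with Ang II in Plod1-/- mice, and 4 of the 5 fell in WT mice. P4hb, the disulfide isomerase that is also a subunit of prolyl 4-hydroxylase, had a mean of 287 ± 20.6 and 173 ± 41.4 in WT mice and 217 ± 10.2 and 412 ± 64.6 in Plod1-/- mice, with saline and Ang II respectively, and was a DEG between genotypes under Ang II at 1.26 ± 0.20 (adjusted p = 0.00223). Pdia3 (ERp57), the partner of the lectin chaperones, and Pdia4 (ERp72) rose by 0.61 and 0.95 on the log2 scale in Plod1-/- mice, and in WT mice they fell, with values of -0.67 and -0.59. Txndc5 and Txndc11 moved least in Plod1-/- mice (0.36 and 0.35), and exons of both overlap those of genes on the other strand (Bmp6 and Snn), from which a kit without strand marks cannot tell their reads apart.

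Manf and Creld2 encode small ER stress proteins that can be secreted. Creld2 stood at 66.7, 81, 68, 67.3 and 42.2 in WT mice with saline and at 27.1, 30.5, 31.8, 43.4 and 38.8 in WT mice with Ang II. It stood at 25, 24.8, 30.5, 34.6 and 24.7 in Plod1-/- mice with saline, each below each WT mouse with saline, and at 82, 50.3, 66.9, 37.2 and 33.6 in Plod1-/- mice with Ang II, where the range was wide.

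The log2 fold change of Creld2 between genotypes under saline was -1.17 ± 0.16 (adjusted p = 0.00679), which was rank 34 of 11999 genes. With Ang II it was 0.86 in Plod1-/- mice (adjusted p = 0.0129) and -0.89 in WT mice (adjusted p = 0.00522), and under Ang II the genotypes differed by 0.58 ± 0.25 (adjusted p = 0.0941), which did not pass. Manf, with means of 29.9, 15, 15.9 and 38.9 in the 4 groups in the order used above, was a DEG in Plod1-/- mice with Ang II (1.16) and between genotypes under Ang II (1.26).

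Among the sensors and transcription factors, Xbp1 is itself a target of ATF6 and XBP1, and gene totals do not separate its spliced form. It stood at 96.6, 105, 65.7, 78 and 69.3 in WT mice with saline and at 77.8, 32.9, 36.4, 65.1 and 45.6 in WT mice with Ang II. It stood at 50.8, 48.3, 54.1, 53.7 and 38.4 in Plod1-/- mice with saline and at 73, 113, 86.9, 81.8 and 81.3 in Plod1-/- mice with Ang II, without overlap between the last 2 groups.

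Xbp1 rose with Ang II in Plod1-/- mice by 0.81 ± 0.14 on the log2 scale (adjusted p = 0.00106), a call kept in all alternatives. In WT mice it fell, with a log2 fold change of -0.73 ± 0.24 (adjusted p = 0.0335), and that call was lost without WT saline mouse 1, 2 or 4 or WT Ang II mouse 2, 3 or 5, at up to 0.0926. The genotypes differed by -0.73 ± 0.15 under saline (limma, adjusted p = 0.0233) and by 0.81 ± 0.24 under Ang II (adjusted p = 0.0267). The saline call was lost without WT saline mouse 2 or Plod1-/- saline mouse 2 or 4. It was also lost with no filter on low values and with all 4 groups in 1 fit, at up to 0.0826. The Ang II call was lost without WT Ang II mouse 2, 3 or 5 or Plod1-/- Ang II mouse 2, 3 or 4. It was also lost with no filter and with the replicate block, at up to 0.0774.

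Ddit3, which encodes CHOP, the pro-apoptotic factor downstream of PERK and ATF4, did not follow the chaperones. It was 47.4, 33.5, 30.6, 22.3 and 33.5 in WT mice with saline and 19.9, 24, 21.4, 25.4 and 28.9 in WT mice with Ang II. It was 24.4, 25.8, 29.1, 27.7 and 18.8 in Plod1-/- mice with saline and 32.7, 21.1, 12, 13.8 and 9.56 in Plod1-/- mice with Ang II, where mouse 1 was the highest and the group overlapped all others. None of the 4 comparisons of 2 groups passed the test, with log2 fold changes of -0.59 and -0.44 for Ang II in Plod1-/- and WT mice and -0.37 and -0.52 for Plod1-/- against WT mice under saline and Ang II. Its exons share bases with Mars on the other strand.

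Creb3l1 (OASIS), the ER-bound factor that drives collagen and secretory genes, was 16.7, 29.4, 12.6, 23.2 and 19.1 in WT mice with saline and 11.5, 9.68, 10.2, 15.1 and 10.3 in WT mice with Ang II. It was 14.7, 19.9, 15.4, 26.9 and 18.5 in Plod1-/- mice with saline and 30.00, 25.6, 41.2, 41.2 and 41.8 in Plod1-/- mice with Ang II. The Ang II groups did not overlap, and the log2 fold change between them, 1.57 ± 0.18 (adjusted p = 0.000702), had the smallest p of the members tested in that comparison. Under saline the genotypes differed by -0.06 ± 0.22 (adjusted p = 0.888, 95% interval -0.53 to 0.42), unlike most chaperones.

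The sensors themselves moved little. Atf6 stood at 5.14 ± 0.48 and 4.02 ± 0.66 in WT mice and 4.63 ± 0.39 and 5.19 ± 0.8 in Plod1-/- mice and passed no test. Ern1 was the least abundant member, at 3.5 ± 0.5 and 2.26 ± 0.7 in WT mice and 2.86 ± 0.52 and 2.68 ± 0.54 in Plod1-/- mice, and passed the test only in WT mice with Ang II among the comparisons of 2 groups (-0.49, lost in 8 of 19 alternatives). Creb3l2 (BBF2H7), the relative of Creb3l1 that drives COPII genes, fell with Ang II in both genotypes, with log2 fold changes of -0.89 in WT and -0.45 in Plod1-/- mice, the latter lost in 10 of 20 alternatives.

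The 3 members of ER-associated degradation each behaved differently. Edem1, the lectin that hands misfolded glycoproteins over, rose in Plod1-/- mice with Ang II from 6.99 ± 0.39 to 15.2 ± 2.88 FPKM. The log2 fold change of 1.0009 ± 0.13 (limma, adjusted p = 0.000209) only just made it a DEG, and it ran from 0.89 to 1.12 in the alternatives. Herpud1, a stress-induced part of the degradation complex, had means of 92.2 and 69.9 in WT mice and 71 and 47.9 in Plod1-/- mice, and was lower in Plod1-/- than in WT mice with Ang II, at -0.56 on the log2 scale (adjusted p = 0.0465), a call lost in 10 of 19 alternatives, among them with each WT Ang II mouse left out in turn. Sel1l, the scaffold of the ligase Hrd1, stood at 10.6, 7.93, 9.87 and 10.2 and passed the test only in WT mice with Ang II (-0.40), a call lost in 11 of 19 alternatives, among them with each WT saline mouse left out in turn and without WT Ang II mouse 2, 3 or 5.

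Of the translocon and signal peptidase genes, 6 of 6 rose with Ang II in Plod1-/- mice and 6 of 6 were higher in Plod1-/- mice under Ang II, with medians of 1.06 and 1.15 on the log2 scale, while 5 of 6 fell in WT mice. Ssr2, a subunit of the translocon-associated protein complex, was 83.4, 91.7, 61.4, 81.7 and 63.4 in WT mice with saline and 67.4, 50.7, 46.7, 58.4 and 62.3 in WT mice with Ang II. It was 47.7, 53.3, 54.3, 52.8 and 46.6 in Plod1-/- mice with saline and 134, 112, 176, 123 and 135 in Plod1-/- mice with Ang II, all of the latter above the other 15 mice.

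Ssr2 had the smallest p of all tested members for Ang II in Plod1-/- mice, with a log2 fold change of 1.38 ± 0.13 (adjusted p = 4.17e-05, rank 119 of 12333). Under Ang II it was higher in Plod1-/- mice by 1.23 ± 0.16 (adjusted p = 0.00122). In WT mice it fell, with a log2 fold change of -0.41 ± 0.15 (adjusted p = 0.049), which was lost without WT saline mouse 1, 2 or 4 or WT Ang II mouse 2, 3 or 5, at up to 0.114.

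Sec61b, the small beta subunit of the Sec61 channel, was 40.1, 49.3, 35.3, 49.1 and 30.2 in WT mice with saline and 41.5, 31.8, 26.4, 31.2 and 35.1 in WT mice with Ang II. It was 24.3, 31.4, 35.9, 35.1 and 29.1 in Plod1-/- mice with saline and 101, 66, 113, 77.9 and 79.2 in Plod1-/- mice with Ang II. The last group lay above all other mice, with a log2 fold change of 1.45 ± 0.16 against Plod1-/- mice with saline (adjusted p = 0.000118) and 1.36 ± 0.17 against WT mice with Ang II (adjusted p = 0.00122). The other 3 groups overlapped, and the changes of -0.28 with Ang II in WT mice and -0.37 between genotypes under saline did not pass the test.

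Spcs3, a subunit of the signal peptidase, had means of 16.4, 10.01, 10.9 and 28 and was a DEG in both comparisons of Plod1-/- mice with Ang II (1.24 against saline and 1.40 against WT). The channel subunit Sec61a1 and the subunits Ssr1 and Ssr3 rose by 0.88, 0.69 and 0.54 on the log2 scale in Plod1-/- mice.

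In ER to Golgi transport, Kdelr3, a receptor that returns escaped chaperones to the ER, showed the largest difference between the responses of the 2 genotypes. It was 60.5, 63.2, 39.7, 54.4 and 37.8 in WT mice with saline and 21.1, 19, 17.5, 37.2 and 21.5 in WT mice with Ang II. It was 33.3, 28.9, 35.8, 36.7 and 31.2 in Plod1-/- mice with saline and 77.9, 41.8, 102, 61.7 and 86.1 in Plod1-/- mice with Ang II. None of the compared pairs of groups overlapped.

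Kdelr3 was a DEG in 3 comparisons, at 1.08 ± 0.21 for Ang II in Plod1-/- mice (adjusted p = 0.00221), -1.12 ± 0.21 for Ang II in WT mice (adjusted p = 0.00397) and 1.62 ± 0.26 between genotypes under Ang II (adjusted p = 0.00258). Its saline difference, -0.58 (adjusted p = 0.0445), was lost in 12 of 19 alternatives, among them without WT saline mouse 1, 2 or 4 and with each Plod1-/- saline mouse left out in turn, at up to 0.201. Kdelr2, the related receptor, had means of 64, 38.4, 44.9 and 102. Of the COPII coat, Sec23b rose in Plod1-/- mice with Ang II (0.47), whereas Sec24d, which helps to package procollagen, fell in WT mice to a mean of 19.1 from 37.5 (-1.05) and stood at 31.2 and 28.2 in Plod1-/- mice, a change of -0.14 that did not pass.

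The prolyl isomerases serve procollagen folding. Fkbp10 (FKBP65), an isomerase that also supports the lysyl hydroxylase of collagen telopeptides, was 49.5, 53.5, 45.5, 50.6 and 46.8 in WT mice with saline and 36.9, 27, 27, 36.4 and 27.6 in WT mice with Ang II. It was 44.2, 45, 44.9, 48 and 47.7 in Plod1-/- mice with saline and 95.6, 56.9, 114, 92.3 and 110.1 in Plod1-/- mice with Ang II. Both responses to Ang II separated the groups without overlap in opposite directions, while under saline the genotypes differed by -0.09 ± 0.07 (adjusted p = 0.396, 95% interval -0.24 to 0.06).

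Fkbp10 was higher in Plod1-/- than in WT mice with Ang II by a log2 fold change of 1.54 ± 0.20 (adjusted p = 0.00122), rose in Plod1-/- mice by 0.98 ± 0.17 (adjusted p = 0.00125) and fell in WT mice, at -0.66 ± 0.12 (adjusted p = 0.00339). Ppib, cyclophilin B, and Fkbp14 were higher in Plod1-/- mice under Ang II by 0.77 and 0.75. The call of Fkbp14 was lost in 10 of 19 alternatives, among them without WT Ang II mouse 2, 3 or 5 or Plod1-/- Ang II mouse 3, 4 or 5, at up to 0.0773 (limma, adjusted p), and that of Ppib in 0. Under saline their differences of -0.31 and 0.01 did not pass the test. Fkbp10 shares exon bases with Nt5c3b on the other strand.

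**Figure D5:**
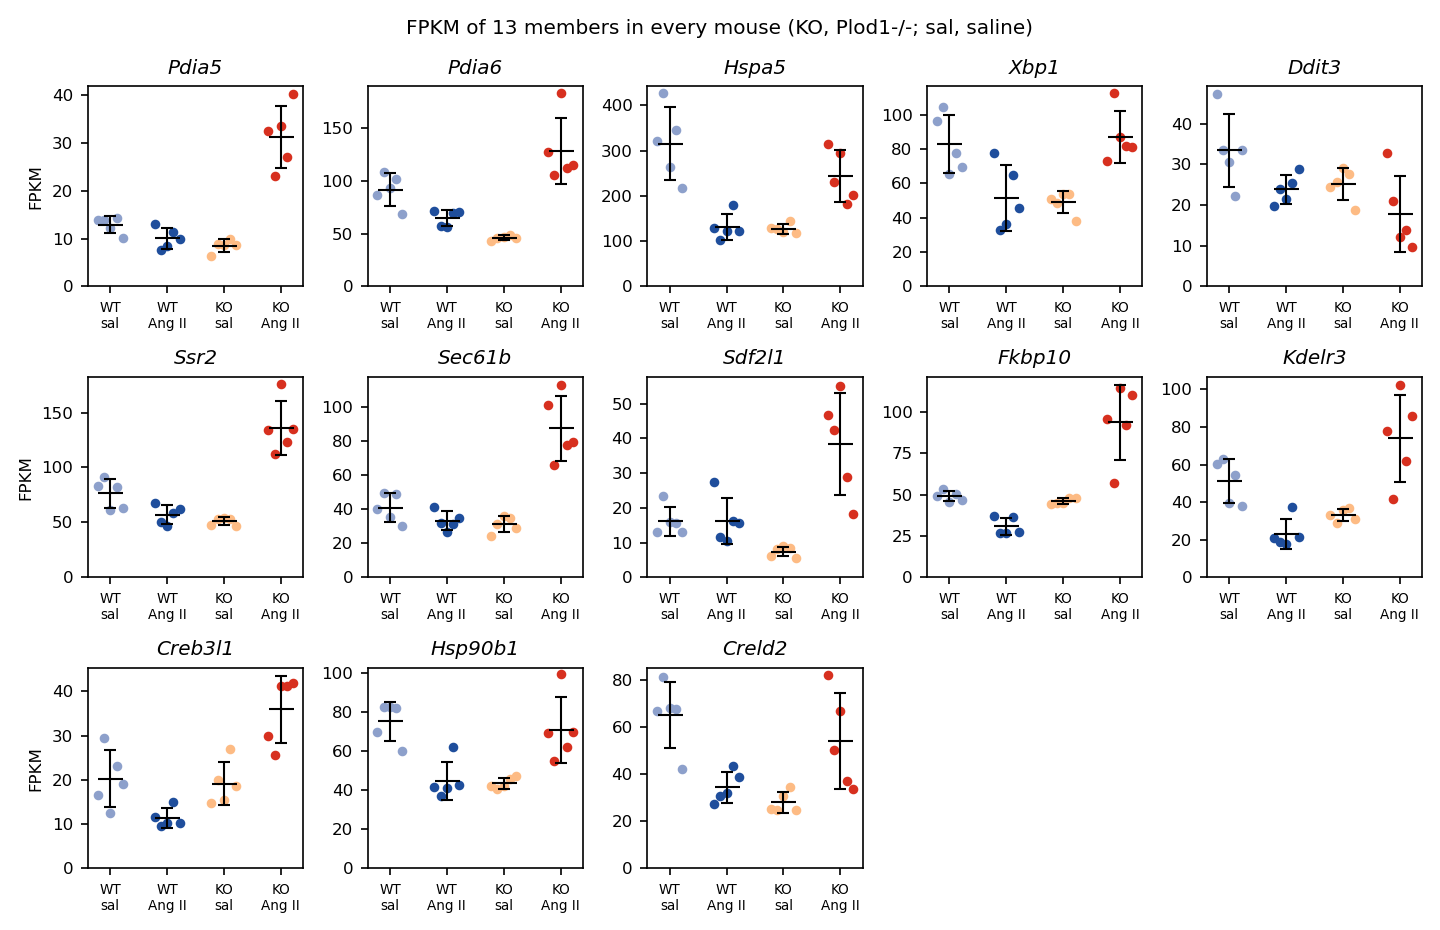
FPKM (y axis, from 0) of 13 members in every mouse, by group (KO, Plod1-/-). Points are mice, and black bars give the mean and SD of 5 mice. Pdia5, Ssr2 and Sec61b are highest in all 5 Plod1-/- mice with Ang II, Hspa5 is highest in WT mice with saline, and Ddit3 overlaps between all groups.

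The average effects over both factors are other contrasts than the interaction, although they share its estimate of the spread between mice. For Pdia5 and Pdia6, which were chosen by a p-value that rests on that spread, they are therefore given as values alone. Averaged over the genotypes, 4 of the other 39 members rose with Ang II (Sdf2l1, Edem1, Sec61b and Ssr2) and 6 fell (Dnajc3, Creb3l2, Ddit3, Ern1, Herpud1 and Sec24d), against 25.5% and 25.7% of 13263 genes (51.2% in all). The 10 calls are a smaller share than among all genes. The average change was 1.06 ± 0.19 on the log2 scale for Sdf2l1 (adjusted p = 0.000197), the 1 DEG among members (6.44% of genes were DEGs that rose, 9.15% DEGs in all), and 0.71 ± 0.11 for Pdia5 and 0.47 ± 0.10 for Pdia6. Without WT Ang II mouse 1 or Plod1-/- Ang II mouse 3 this DEG count was 0. Ddit3 averaged -0.51 ± 0.17 (adjusted p = 0.019, at most 0.0502 in the alternatives).

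Averaged over the treatments, 12 of the same 39 members were higher in Plod1-/- mice and 1, Herpud1, lower, against 11.3% and 3.17% of genes (14.5% in all), and 0 were DEGs (1.70% of genes, 1.55% higher and 0.151% lower). The largest were Creb3l1 at 0.76 ± 0.14 (adjusted p = 0.00277) and Fkbp10 at 0.72 ± 0.11 (adjusted p = 0.000526, rank 36 of 13263). Pdia5 averaged 0.50 ± 0.11 and Pdia6 -0.00 ± 0.10. Hspa5 averaged -0.19 ± 0.13, which did not pass, and its sign differed between the treatments.

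The difference between the responses of the genotypes led to the choice of the list and is given without a test. It was above 1 on the log2 scale in 26 of 41 members and below -1 in 0, against 10.9% and 7.39% of 13263 genes (18.3% in all), and above 0 in 38 of 41 against 57.7%. Kdelr3 (2.199 ± 0.31, SE), Sdf2l1 (2.18 ± 0.37), Hspa5 (2.16 ± 0.26), Pdia5 (2.09 ± 0.22) and Manf (2.05 ± 0.35) had the largest values. The 3 members below 0 were Sil1 (-0.54 ± 0.18), Herpud1 (-0.18 ± 0.24) and Ddit3 (-0.15 ± 0.35).

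The 7 members with an ERSE and the 24 others with a promoter did not keep 1 order. Their median log2 fold changes with Ang II were 0.66 and 0.56 in Plod1-/- mice and -0.73 and -0.51 in WT mice. Plod1-/- against WT mice, they were -0.77 and -0.36 under saline and 0.58 and 0.76 under Ang II, where the members without ERSE had the higher median. None of these differences was tested.

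Genes of the same pathways that are not on the list were counted from lists drawn up with earlier results known, in the order Plod1-/- Ang II against saline, WT Ang II against saline, Plod1-/- against WT under Ang II and the same under saline. In the same order 23.8% of all genes rose and 20.1% fell, 16.5% rose and 21.5% fell, 20.8% were higher and 10.4% lower, and 3.33% were higher and 3.23% lower. Of 18 other ER folding enzymes and chaperones tested, 6 rose and 2 fell, 0 rose and 9 fell, 5 were higher and 0 lower, and 0 were higher and 3 lower, so that the counts of genes that rose or were higher are not far from those shares. The collagen chaperone Serpinh1 (HSP47) changed by 1.31, -1.02, 1.24 and -1.09 on the log2 scale and passed the test each time. Fkbp11, an isomerase of secretory cells, rose by 2.89 ± 0.25 in Plod1-/- mice (adjusted p = 3.31e-05), and the disulfide oxidases Ero1a and Ero1b passed no test.

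Of 25 other translocation and N-glycosylation genes, 13 rose and 0 fell, 0 rose and 13 fell, 17 were higher and 0 lower, and 0 were higher and 4 lower. Examples in Plod1-/- mice with Ang II were the translocating chain protein Tram1 (1.00), the oligosaccharyltransferase subunits Ostc (1.26) and Stt3a (0.70) and the channel subunit Sec61g (0.89). Of 20 other COPII and cargo receptor genes, 12 rose and 0 fell, 1 rose and 11 fell, 12 were higher and 0 lower, and 0 were higher and 7 lower. The cargo receptors Lman1 and Surf4 rose by 1.10 and 0.96 in Plod1-/- mice. Of the other ER-associated degradation genes, 6 of 14 rose and 0 fell, 1 of 14 rose and 5 fell, 5 of 15 were higher and 0 lower, and 0 of 14 were higher and 1 lower.

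The PERK and ATF4 branch was mixed. Of its 12 genes, 7 rose and 1 fell with Ang II in Plod1-/- mice, 3 rose and 4 fell in WT mice, 3 were higher and 0 lower in Plod1-/- mice under Ang II, and 0 were higher and 1 lower under saline. The 3 that rose in WT mice and the 3 higher under Ang II are near the shares among all genes, 16.5% and 20.8%. The amino acid synthesis genes Asns and Psat1 rose by 2.15 and 2.17 in Plod1-/- mice, and Asns also rose in WT mice (1.64), where Atf4 (-0.86) and the phosphatase subunit Ppp1r15a (-1.20) fell. The PERK gene itself, Eif2ak3, had the order of the chaperones, with 0.53 in Plod1-/- mice and -0.39 in WT mice, both past the threshold.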

How the data were processed

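RNA-seq libraries came from the abdominal aortas of 20 mice, whose groups were read from the labels. Per the labels' processing notes the tools were Bowtie2 2.2.3, HISAT2 2.1.0 and HTSeq 0.6.0 on mm10, whereas the study's methods name stringtie, cuffquant and cuffnorm. The authors deposited FPKM, listed by Ensembl gene. With the exon lengths of GENCODE mouse release M21, which also gave symbols, they resolved into whole reads in every mouse for 92.1% of 42951 genes (within 0.01 read plus 1e-06 of the count), and for 97.5% once 2255 lengths were solved. The library sizes came from the steps between low values and the M21 lengths, before any length was solved. No pair of libraries agreed within sampling noise (chi-square per gene at least 23.0).

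The members and gene lists were chosen with earlier results of these data known. log2(FPKM + 1) was fitted with limma 3.58.1 (lmFit, eBayes with trend) in R 4.3.3, on genes with FPKM of at least 1 in at least 5 mice of a fit, and p-values were adjusted by Benjamini-Hochberg over all genes. The 4 comparisons of 2 groups used 10 mice each, and average effects and the interaction all 20. Each fit was tested on simulated data. Named members were Pdia5, Pdia6, Hspa5, Xbp1 and Ddit3, the 3 members of smallest p in each comparison of 2 groups and the 2 of smallest p in each average effect. Other genes were named as role examples after their values were seen. Alternatives were a pseudocount of 0.1, no filter, a replicate block, no trend, weights per mouse, quantile normalization, mitochondrial genes left out, mice with Xist RNA left out, all 4 groups in 1 fit, each mouse left out, and limma voom on the recovered reads, which was added after seeing the data. Figures were drawn with matplotlib 3.10.9.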

Additional observations from a re-analysis of the deposited data

Results flagged for a closer look

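In 8 of 164 tests, each of the 5 mice of a group for a member, Dixon's rule (critical value 0.71) found 1 mouse far from the other 4 in log2(FPKM + 1), and chance alone flags about 1 in 20. In WT mice with Ang II, mouse 4 was high for Hsp90b1, at 61.8 FPKM against 36.9 to 42.3 in the other 4, and for Kdelr3, at 37.2 against 17.5 to 21.6. It is the mouse whose adipocyte marker sum was lowest and whose smooth muscle marker sum was highest in its group. The part of either in the values was not tested. In WT mice with saline, mouse 2 was high for Hyou1, at 32.0 FPKM against 21.6 to 24.2. In Plod1-/- mice with saline, mouse 1 was low for Pdia5, at 6.31 against 8.72 to 9.89, and high for Ern1, at 3.78 against 2.52 to 2.74, and mouse 4 was high for Fkbp14, at 10.1 against 8.88 to 9.11. In Plod1-/- mice with Ang II, mouse 3 was high for Pdia4, at 105.6 against 65.5 to 74.5, and mouse 2 for Txndc11, at 7.60 against 5.62 to 6.00.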

How the results depend on the processing

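Counts of called members kept their direction under all alternatives run. Counts in the average effects are here over all 41 members. The number called in WT mice with Ang II, 32, was 15 with no filter on low values, where adjustment ran over more genes. The number called between genotypes under saline, 19, was 10 with no filter, 12 without the mouse with Xist RNA in it, 8 with all 4 groups in 1 fit and 9 with the replicate number as a block. With weights per mouse, 24 members were called in the average Plod1-/- effect against 14, and the average Ang II effect had 0 DEGs against 1, as it did without both mice with Xist RNA. The cause of these shifts was not tested.

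Leaving out each mouse in turn gave 27 to 32 called members for Ang II in Plod1-/- mice, 18 to 34 for Ang II in WT mice, 19 to 30 between genotypes under Ang II, 10 to 20 under saline, 11 to 14 for the average Ang II effect and 10 to 18 for the average Plod1-/- effect. DEG counts ran from 6 to 9, 2 to 4, 9 to 15, 2 to 3, 0 to 1 and 0 to 0 in the same order, and the differences past 1 between responses from 24 to 30. Of 2259 values of single members under the other alternatives, 2093 kept their side of the threshold, 118 lost it and 48 gained it, and of 3200 with a mouse left out 2897, 257 and 46 did so. Between genotypes 1 mouse with Xist RNA takes part, so leaving it out is the same fit in both series. None reversed among called members.

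Replicate numbers gave no clear pairing of the mice: the correlation of same-numbered mice across genes ran from -0.17 to 0.42 in Plod1-/- mice, -0.06 to 0.19 in WT mice, -0.33 to 0.25 under Ang II and -0.31 to 0.18 under saline. In that order, same-numbered mice were each other's best match in 2, 0, 1 and 0 of 5 pairs. With the replicate number as a block, 31, 25, 20, 9, 12 and 13 members were called in the 6 comparisons. Limma voom on recovered reads called 31, 34, 27, 19, 12 and 12. The exact test planned for members below the filter was not run, because 0 were below it.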
